A study of Mus musculus with 10 samples.

Results

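The 10 genes described here encode the main carriers that take up amino acids and small peptides across the wall of the small intestine. They are *Slc15a1*, *Slc6a19*, *Slc7a9*, *Slc3a1*, *Slc7a7*, *Slc7a8*, *Slc1a1*, *Slc36a1*, *Slc3a2* and *Slc6a14*, which were taken by symbol from the 35275 Ensembl gene IDs counted in each library. Sections of proximal intestine from 5 KO and 5 WT animals were used for RNA-seq, each mouse giving its own library, and the labels give an age of 8 to 10 weeks for both groups. KO mice carry a deletion of *Zip14* (*Slc39a14*), a metal transporter that imports zinc, and their controls were WT mice of that strain. The methods of the study describe the sequenced KO mice as lacking *Zip14* in the whole body, bred from heterozygous parents, while a deletion limited to enterocytes stands in the title of the series. The counts do not tell these apart, so the groups are called KO and WT as in the labels. Over all its experiments the study used both sexes and a wider range of ages than the labels give, on the same commercial diet. The sex and age of each sequenced mouse were not given.

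Dietary protein is cut by pancreatic and brush border enzymes and enters the enterocyte as small peptides and as free amino acids. On the apical side, PepT1 (*Slc15a1*) carries di- and tripeptides with protons, B0AT1 (*Slc6a19*) carries neutral amino acids with sodium, and EAAT3 (*Slc1a1*) carries glutamate and aspartate. PAT1 (*Slc36a1*) moves small amino acids such as glycine and proline with protons at the apical membrane and out of lysosomes, and ATB0,+ (*Slc6a14*) takes up neutral and cationic amino acids and is best known from the colon and lung. Cystine and cationic amino acids enter through a heteromeric carrier made of the light chain b0,+AT (*Slc7a9*) and the heavy chain rBAT (*Slc3a1*), and loss of either chain causes cystinuria. On the basolateral side the light chains y+LAT1 (*Slc7a7*) and LAT2 (*Slc7a8*) pair with the heavy chain 4F2hc (*Slc3a2*) and pass amino acids on to the blood.

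The promoters of the 10 genes are shown where they hold the letters of 4 motifs, those of factors known from intestinal genes or from the response to amino acid shortage. RefSeq (GRCm38.p6) gave 15 promoters for all 10 genes, some of them overlapping, each running from 250 bases before to 50 after a start site, and the search on both strands used CAAAGTCCA for HNF4A, TTTATNG for CDX2, AGATAA for GATA factors and TGATGNAA for the amino acid response element. HNF4A letters were present in 1 of the 15 promoters and 0.475% of 32851 promoters of all genes, and CDX2 letters in 1 and 10.9%. GATA letters were present in 4 and 11.2%, and amino acid response letters in 2, which overlap, and 3.97%. The promoter of *Slc3a1* held 3 of the motifs and the most upstream start site of *Slc7a7* held 2 copies of TGATGNAA, while the promoters of *Slc15a1*, *Slc6a19*, *Slc7a8*, *Slc1a1*, *Slc36a1*, *Slc3a2* and *Slc6a14* held no match to these letters in this window. The GATA letters were held by *Slc3a1*, by *Slc7a9* at 2 places and by 2 overlapping promoters of *Slc7a7*. A stretch for each gene and motif is written below along the gene, with the match in capitals.
Slc3a1, HNF4A letters 39 bases before the start (chr17:85028297-85028326, plus strand): ccttggctggaCAAAGTCCAgccatgatta
Slc3a1, CDX2 letters 73 bases before the start (chr17:85028263-85028291, plus strand): tcccgacccccTTTATTGaactttacgca
Slc3a1, GATA letters 119 bases before the start (chr17:85028217-85028244, plus strand): acccggtataaAGATAAtttttgcacac
Slc7a9, GATA letters 205 bases before the start (chr7:35448876-35448903, plus strand): gatctaggcacAGATAAataaaaccgaa
Slc7a7, GATA letters 190 bases before the second start (chr14:54417876-54417903, minus strand): gaggtaggcagAGATAAagttcggggac
Slc7a7, amino acid response letters 141 bases before the start (chr14:54418067-54418096, minus strand): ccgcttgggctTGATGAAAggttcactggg
Slc7a7, amino acid response letters 1 base before the start (chr14:54417927-54417956, minus strand): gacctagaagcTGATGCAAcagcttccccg
A match is given as a description of these letters and not as a bound site.

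The libraries held between 16729787 and 20819678 counts. *Slc39a14* was lower in all KO libraries, at 260.4 ± 62.5 CPM in WT and 102 ± 32.9 CPM in KO mice (SD, n = 5 each), and KO1 (KO replicate 1) had the highest KO value, 160.1 CPM. CPM are counts brought to a common library size with TMM scaling, which allows for differences in depth but does not remove differences in cell make-up. The quasi-likelihood test of edgeR was used on 15610 genes, and 4660 of these (29.9%) had an adjusted p under 0.05, 16.0% higher and 13.9% lower in KO mice. The summed level of 10 epithelial genes was 9678 to 11680 CPM in WT and 12908 to 17717 CPM in KO libraries, with 8 of the 10 called higher in KO mice. *Cdh1* was not past the threshold, and neither was *Vil1*, which had a lower mean in KO mice (3086 CPM in WT, 2200 CPM in KO mice, adjusted p = 0.105 by edgeR). The summed level of 10 smooth muscle genes was 1217 to 2166 CPM in WT and 3275 to 9821 CPM in KO libraries, with all 10 called higher and KO4 the highest. Markers of the ileum (5 of 5 called higher) summed to 199 to 237 CPM in WT and 3245 to 10499 CPM in KO libraries, and those of the proximal intestine (2 of 4 tested called lower) to 204 to 388 CPM and 31.5 to 95.4 CPM. The 2 called genes of the proximal list were *Gata4* and *Onecut2*, while *Slc40a1* (20.6 and 32.6 CPM in WT and KO mice) and *Cybrd1* (9.52 and 7.64 CPM) were not past the threshold, and *Pdx1* was not tested and was near 0 in WT4 and WT5 as well. Both groups share the label of proximal intestine. *Onecut2* was at 18.1 to 124 CPM in WT and 0.282 to 1.52 CPM in KO libraries. Here too WT4 and WT5 were low, at 18.1 and 20.2 CPM, against 68.1 CPM or more in the other WT libraries. *Gata4*, a transcription factor of the proximal intestine, was at 59.4 CPM in KO1 and 0.572 to 13.8 CPM in the other KO libraries, against 160.3 CPM or more in every WT library. These summed levels do not overlap between the groups, so that the part of the epithelium, the smooth muscle or the position along the intestine in a result below cannot be told apart from the genotype. Leukocyte genes summed to 341 to 426 CPM in WT and 298 to 539 CPM in KO libraries, with 1 called higher and 1 called lower of 10, and genes of pancreatic acinar cells and of the stomach stayed at or under 28.4 and 3.14 CPM in every library. In bulk tissue, fewer cells of a type and less RNA per cell cannot be told apart.

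**Figure D1:**
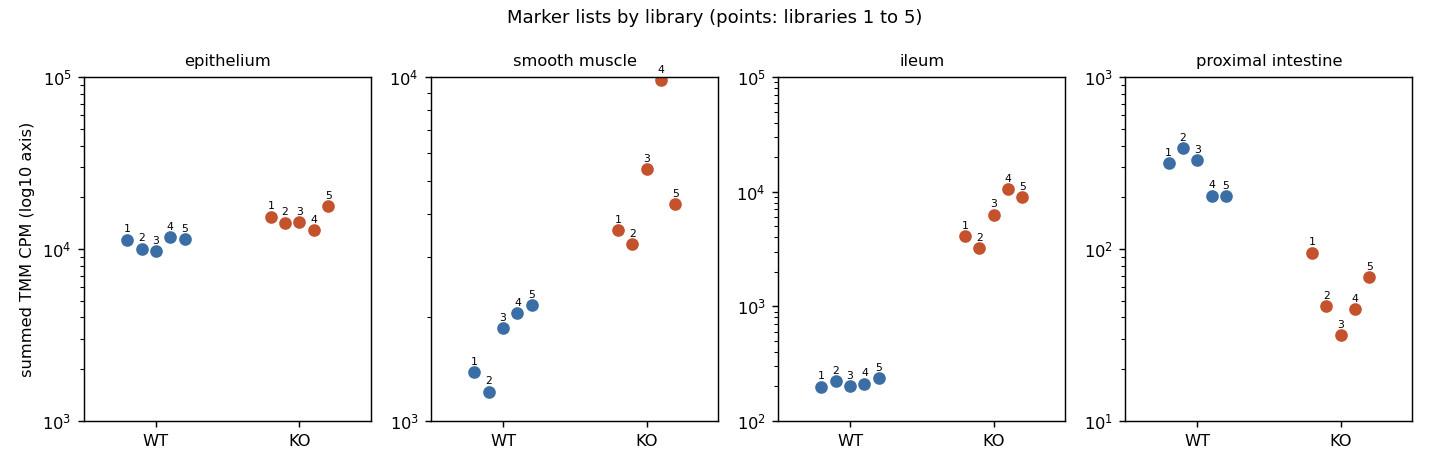
Summed TMM CPM (log10 axis) of the marker lists of epithelium, smooth muscle, ileum and proximal intestine, with a point for each of the 5 WT and 5 KO libraries and its replicate number. For each of the 4 lists the KO libraries lie apart from the WT libraries, from 3245 CPM upward against 237 CPM at most for the ileum list.

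Of the 10 transporters, 4 were lower, 1 was higher and 4 were not past the test in KO mice, and *Slc6a14* was left out by the filter on low counts because it was nearly silent in 6 libraries. The fallers were *Slc7a8* (8.55-fold), *Slc36a1* (7.84-fold), *Slc3a2* (2.73-fold) and *Slc7a7* (1.61-fold), and the gene that rose was *Slc1a1* (3.31-fold). All 3 basolateral chains were thus among the lower genes. The apical peptide carrier, the main apical carrier of neutral amino acids and both chains of the cystine carrier were not past the test. Of the 9 tested transporters 5 were called, against a background of 29.9% of genes. Scaled to the epithelial genes, 8 were called lower and *Slc1a1* stayed higher, and without KO1 and KO2 *Slc15a1* joined the lower genes, which were then 5. These settings called more of all genes too, 50.6% with the epithelial scaling, where the median of all genes was -0.43, and 34.7% without KO1 and KO2. With TMM scaling the median log2 fold change was -0.69, and -0.47 when *Slc6a14* is placed above the others, beside 0.03 over all genes tested. The 5 called genes were also those of the 9 in which no KO library overlapped a WT library, which held for 21.1% of genes tested (10.2% with KO libraries above and 10.8% with KO libraries below).

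**Figure D2:**
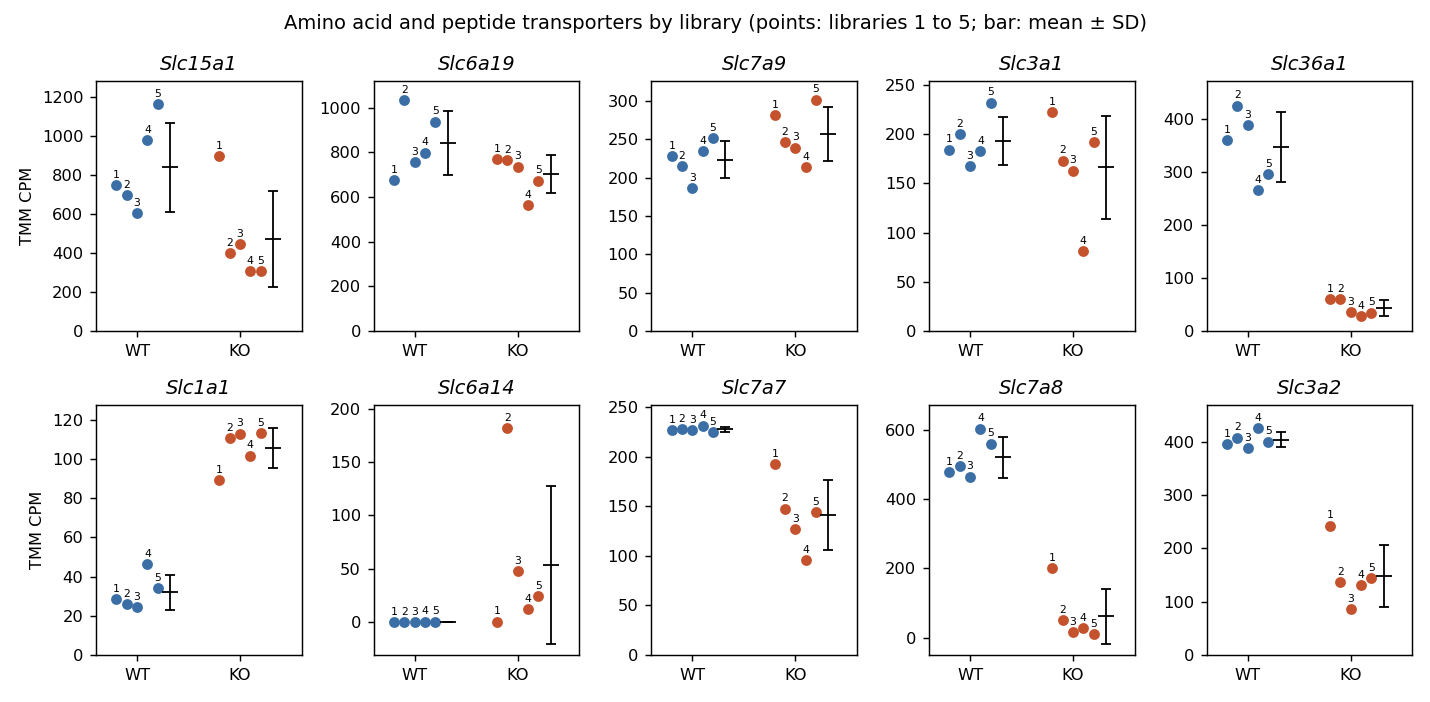
TMM CPM of each of the 10 transporters (linear axis) in 5 WT and 5 KO libraries, numbered by replicate, with the mean and SD of each group. *Slc7a8*, *Slc36a1*, *Slc3a2* and *Slc7a7* are lower and *Slc1a1* is higher in all KO libraries, and KO1 is the KO library nearest to the WT libraries for *Slc15a1*, *Slc7a7*, *Slc7a8* and *Slc3a2*.

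Levels of different genes were compared as CPM per kb of annotated exon. In WT mice *Slc15a1* and *Slc6a19* were the most abundant of the 10, at 172 ± 46.5 and 168 ± 28.7 CPM per kb (SD, n = 5), and their order was not fixed, since *Slc15a1* was higher in 3 of 5 libraries. *Slc3a2* (114 CPM per kb) and *Slc7a8* (104 CPM per kb) followed, in that order in all 5 WT libraries. *Slc3a1* and *Slc7a9*, the chains of the cystine carrier, were nearly equal at 85.0 and 83.4 CPM per kb, a difference of 1.61 ± 6.99 CPM per kb. *Slc7a7* (68.7 CPM per kb) and *Slc36a1* (61.6 CPM per kb) did not differ beyond their spread either. These 8 genes were above at least 94.2% of all genes tested in WT mice. *Slc1a1*, at 3.86 CPM per kb, was near the middle, above 48.7% of genes, and *Slc6a14* was last at 0.0194 CPM per kb.

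In KO mice the order was different. *Slc6a19* had the highest mean, 140.2 ± 17.1 CPM per kb, and was above *Slc15a1* in 4 of 5 libraries, the exception being KO1. It was followed by *Slc15a1* (96.5 ± 50.0 CPM per kb) and *Slc7a9* (95.8 ± 13.1 CPM per kb), which did not differ beyond their spread. *Slc7a8*, the fourth in WT mice, was near the end at 12.2 ± 16.0 CPM per kb, and so was *Slc36a1* at 7.86 ± 2.65 CPM per kb. The order of these genes was not fixed, since *Slc7a8* was the higher in only 2 of 5 KO libraries, with 40.2 CPM per kb in KO1 and 1.78 to 10.1 CPM per kb in the others. *Slc6a14*, *Slc1a1* and *Slc7a8* lay at 15.5, 12.8 and 12.2 CPM per kb in KO mice, differences that were smaller than their SD. The summed level of the 10 genes was 762 to 971 CPM per kb in WT and 384 to 728 CPM per kb in KO libraries, so that every KO library was below every WT library. Of that sum, *Slc7a9* made up 9.70 ± 0.632% in WT and 18.3 ± 3.22% in KO mice, and *Slc7a8* 12.1 ± 0.868% and 1.94 ± 2.08%. The share of *Slc7a7* was 8.04 ± 0.766% in WT and 7.90 ± 0.417% in KO mice, although its level was lower.

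**Figure D3:**
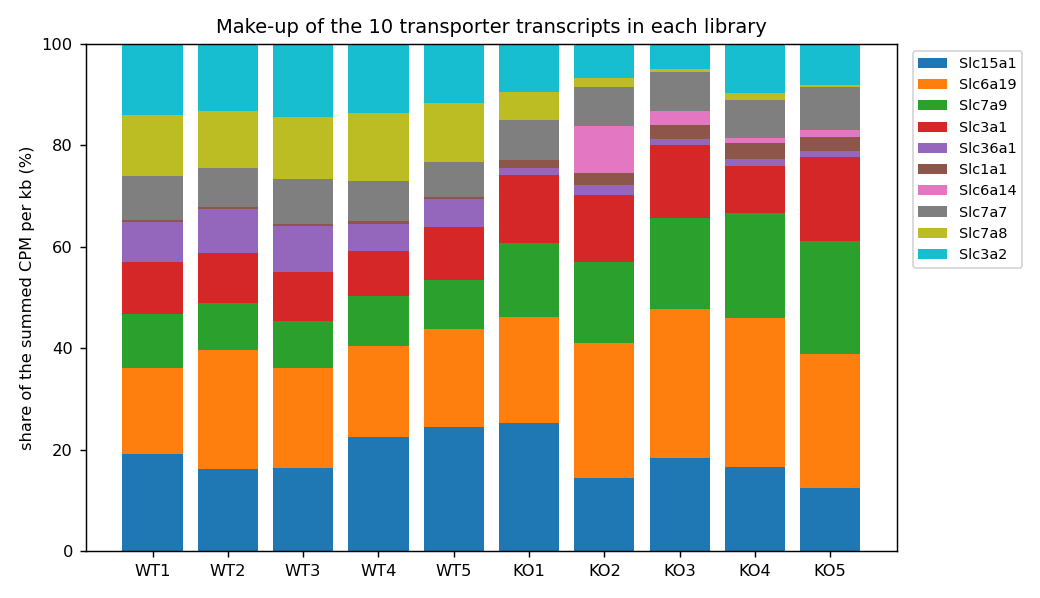
Share of each transporter in the summed CPM per kb of the 10 genes (percent, stacked bars) in every library. *Slc7a8*, *Slc36a1* and *Slc3a2* take a smaller part of the bar in every KO library than in any WT library, and *Slc7a9* a larger one.

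*Slc15a1* (ENSMUSG00000025557, minus strand of chromosome 14 from 121459621 to 121505252, GRCm38), which encodes the peptide carrier PepT1, had 747, 697, 606, 979 and 1161 CPM in WT1 to WT5. The KO libraries had 895, 401, 446, 309 and 306 CPM. All KO libraries but KO1 were below every WT library, while KO1 was within the WT range. KO differed from WT mice by -0.83 on the log2 scale (standard error 0.31, 95% interval -1.50 to -0.16 before adjustment), which just missed the threshold (adjusted p = 0.0608 by edgeR). Without KO1 it was -1.20 and past the threshold (adjusted p = 0.00259 by edgeR), and DESeq2 on all libraries called it as well (adjusted p = 0.0228). Leaving out any other single mouse gave no call. Of 6 planned changes of scaling, tool, filter or block, only DESeq2 gave one.

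*Slc6a19* (ENSMUSG00000021565, minus strand of chromosome 13 from 73679745 to 73704865) encodes B0AT1, the carrier that is defective in Hartnup disease. It had 676, 1032, 756, 799 and 938 CPM in WT and 769, 765, 737, 565 and 673 CPM in KO libraries. The groups overlapped, with KO4 and KO5 below all WT libraries. The log2 fold change of -0.26 (standard error 0.15) was not past the threshold (adjusted p = 0.192 by edgeR), and its 95% interval runs from -0.58 to 0.06.

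The cystine carrier showed a small difference between its chains. *Slc7a9* (ENSMUSG00000030492, plus strand of chromosome 7 from 35448796 to 35466036) had 228, 215, 187, 235 and 251.8 CPM in WT and 282, 246, 239, 213 and 302 CPM in KO libraries. KO1 and KO5 were above every WT library and the others lay within the WT range. The log2 fold change was 0.20 (standard error 0.12, 95% interval -0.06 to 0.46, adjusted p = 0.222 by edgeR), which was not past the threshold. Its call depended on the scaling, since *Slc7a9* was called higher with library size only (0.32, adjusted p = 0.0460 by edgeR) and lower when libraries were scaled to the sum of the 10 epithelial genes (-0.26, adjusted p = 0.0389 by edgeR). *Slc3a1* (ENSMUSG00000024131, plus strand of chromosome 17 from 85028376 to 85064236) had 184, 199.5, 168, 182 and 232 CPM in WT and 222, 173, 163, 81.3 and 192 CPM in KO libraries. KO4 stood low and KO3 just below the WT range, and the log2 fold change was -0.22 (standard error 0.22, 95% interval -0.70 to 0.26, adjusted p = 0.472 by edgeR). *Slc3a1* shares 601 exon bases (26.5% of its exon bases) with *Prepl* on the other strand, which had 68.3 ± 6.99 CPM in WT and 56.7 ± 14.4 CPM in KO mice (SD, n = 5 each), and whether the counting used strand is not stated in the sources used here.

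*Slc36a1* (ENSMUSG00000020261, plus strand of chromosome 11 from 55204350 to 55236330), the proton-coupled carrier of glycine and proline, had 359, 425, 388, 266 and 296 CPM in WT libraries. The KO libraries had 60.1, 60.4, 36.3, 29.1 and 35.2 CPM. The groups lay far apart, and every KO library was below every WT library. The log2 fold change of -2.97 (standard error 0.24) had the smallest adjusted p of the 9 genes (7.13e-05 by edgeR) and lay between -3.12 and -2.85 whichever mouse was left out.

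*Slc1a1* (ENSMUSG00000024935, plus strand of chromosome 19 from 28835049 to 28913960), which encodes the glutamate carrier EAAT3, was the only one of the 9 tested genes called higher. It had 28.5, 26.1, 24.5, 46.3 and 34.1 CPM in WT and 89.3, 110.7, 113, 102 and 113 CPM in KO libraries. The lowest KO library was above the highest WT library, and KO1 was the lowest of the KO group. *Slc1a1* rose by 1.73 on the log2 scale (standard error 0.17, adjusted p = 1.60e-04 by edgeR). A gene on the other strand, *4430402I18Rik*, shares 2631 exon bases (31.9%) with *Slc1a1* and was at 1.77 ± 0.301 CPM in WT and 1.28 ± 0.304 CPM in KO mice (SD, n = 5 each).

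*Slc6a14* (ENSMUSG00000031089, plus strand of chromosome X from 21714896 to 21742355) encodes ATB0,+, the broad carrier of neutral and cationic amino acids. It had 0, 0, 0, 3 and 3 counts in WT libraries, where 3 counts are also the limit that a count of 0 allows, which is 0.156 to 0.191 CPM. In KO libraries it had 3, 3468, 875, 256 and 466 counts, or 0.169, 182, 47.2, 12.2 and 24.4 CPM. KO1 was at the WT level, the other KO libraries were far above it, and KO2 held more than the others together. Mean log2 CPM (with a prior count of 2) was higher by 6.50 in KO mice (exact permutation test, p = 0.00794, the smallest that 5 against 5 libraries allow), although KO1 exceeds the WT libraries only through its library size. The size of this difference depends on the prior count, since WT counts were 0 or 3, and DESeq2 gave a log2 fold change of 9.62. The difference in mean log2 CPM was 5.60 without KO2 and 7.94 without KO1. The exact permutation test gave p = 0.00794 in either case, again the smallest that the number of libraries allows. KO2 also held 1172 CPM of *Car1*, a gene of the colon, against 0 to 11.3 CPM in the other libraries, and the part of this in *Slc6a14* was not tested. *Car1* was at 0.540 CPM in KO3, 11.3 CPM in KO4 and 0 CPM in KO1 and KO5.

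The 3 chains of the basolateral carriers were all lower. *Slc7a8* (ENSMUSG00000022180, minus strand of chromosome 14 from 54722209 to 54781946), the light chain LAT2 for neutral amino acids, had 478, 496, 464, 602 and 559.7 CPM in WT libraries. The KO libraries had 201, 50.6, 16.2, 27.5 and 8.92 CPM. All were below the WT libraries, and they differed among themselves more than for any of the other 8 tested genes, with a coefficient of variation of 131% in KO against 11.3% in WT mice. *Slc7a8* changed by -3.10 on the log2 scale (standard error 0.73, adjusted p = 0.0103 by edgeR), and -4.33 without KO1 (adjusted p = 1.55e-04 by edgeR).

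*Slc7a7* (ENSMUSG00000000958, minus strand of chromosome 14 from 54369442 to 54417780) encodes y+LAT1, the light chain that exports cationic amino acids and is defective in lysinuric protein intolerance. It had 227, 228, 227, 231 and 225 CPM in WT libraries, a coefficient of variation of 1.04%, where counting error alone gives 1.58%, while the other 9 transporters varied by more than their counting error in WT mice. The KO libraries had 193, 148, 127, 95.6 and 144 CPM, with a coefficient of variation of 25.0%. All KO libraries were below the WT libraries. *Slc7a7* changed by -0.69 on the log2 scale (standard error 0.15, adjusted p = 0.00845 by edgeR). *Oxa1l* on the other strand shares 232 exon bases (7% of those of *Slc7a7*) and had a log2 fold change of -0.05 (adjusted p = 0.739 by edgeR).

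*Slc3a2* (ENSMUSG00000010095, minus strand of chromosome 19 from 8706882 to 8723369), the heavy chain 4F2hc that both light chains need to reach the membrane, had 396, 408, 388, 426 and 401 CPM in WT libraries. The KO libraries had 243, 136, 86.1, 130.5 and 144 CPM. KO1 was again the nearest to the WT group, which had a coefficient of variation of 3.54%, against 39.0% in KO mice. *Slc3a2* changed by -1.45 on the log2 scale (standard error 0.22, adjusted p = 0.00139 by edgeR), and -1.70 without KO1.

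**Figure D4:**
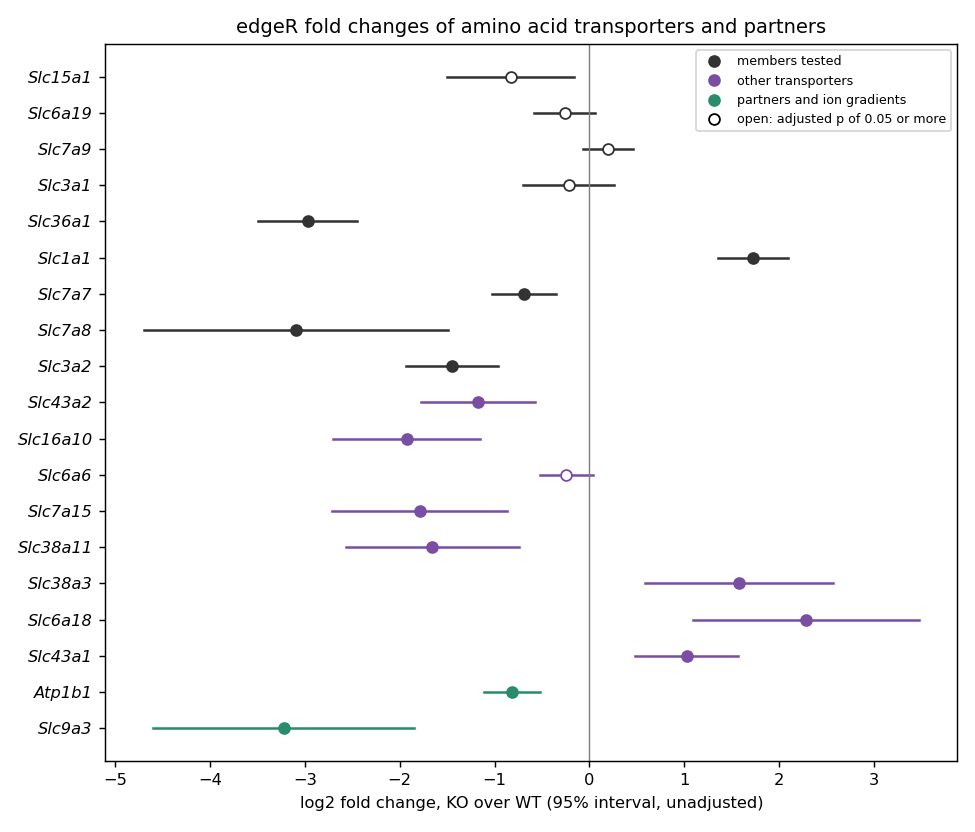
log2 fold change of KO over WT mice from edgeR (x axis) with its unadjusted 95% interval, for the 9 tested transporters, 8 other amino acid transporters and 2 ion gradient genes. Filled points had an adjusted p under 0.05, and *Slc1a1* is the only filled point above 0 among the 9.

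Ratios within a library do not depend on the scaling between libraries, and those of 3 pairs of chains that work together are given here. The ratio of *Slc3a2* to *Slc7a7* counts was 1.71 to 1.84 in WT and 0.679 to 1.36 in KO libraries. The heavy chain thus fell by more than this light chain, with a difference of -0.81 on the log2 scale (exact permutation test, p = 0.00794, Benjamini-Hochberg adjusted over the 4 ratios computed 0.0159). The ratio of *Slc3a2* to *Slc7a8* was 0.707 to 0.837 in WT libraries and 1.21, 2.69, 5.29, 4.73 and 16.1 in KO1 to KO5. Here the light chain fell by more, with a difference of 2.43 (exact permutation test, p = 0.00794, adjusted 0.0159).

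At the apical side, the ratio of *Slc3a1* to *Slc7a9* was 0.807, 0.929, 0.898, 0.777 and 0.920 in WT and 0.788, 0.703, 0.682, 0.381 and 0.636 in KO libraries. KO1 lay within the WT range and the other KO libraries below it, with a difference of -0.48 on the log2 scale (exact permutation test, p = 0.0159, adjusted 0.0212). Without KO4, which had the lowest ratio, the difference was -0.30 (exact permutation test, adjusted p = 0.0317).

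**Figure D5:**
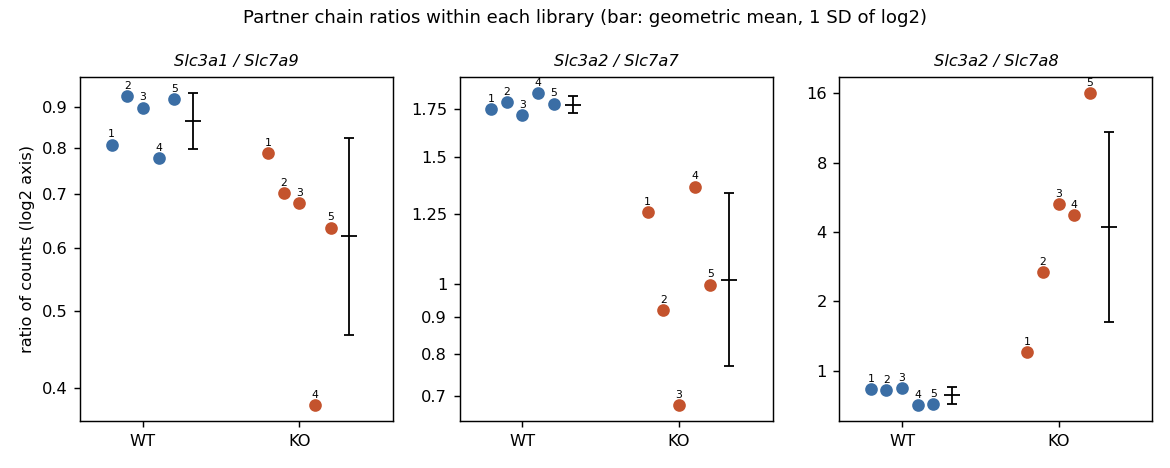
Ratio of counts of partner chains within each library (log2 axis), with a point for each of 5 WT and 5 KO libraries, the geometric mean and 1 SD of the log2 ratio. *Slc3a2* to *Slc7a7* is lower and *Slc3a2* to *Slc7a8* is higher in every KO library than in any WT library.

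Partners of these carriers and genes that keep up the ion gradients were listed as well. Of 7 genes, 6 were tested and 4 were called lower and 0 higher, against a background of 13.9% and 16.0% of genes, with a median log2 fold change of -0.80. *Atp1b1*, the beta subunit of the sodium pump, had a log2 fold change of -0.81 (adjusted p = 0.00211 by edgeR). *Slc9a3*, the sodium-proton exchanger NHE3 that restores the proton gradient used by PepT1, had 97.5 ± 25.9 CPM in WT and 10.5 ± 9.57 CPM in KO mice (SD, n = 5 each). That is a change of -3.22 on the log2 scale (adjusted p = 0.00427 by edgeR). No KO library overlapped a WT library in either of these genes.

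Among 37 other amino acid and peptide transporters, 33 were tested, 9 were called lower and 6 higher, against a background of 13.9% and 16.0% of genes, with a median log2 fold change of 0.09. *Slc43a2* (LAT4, a uniporter of branched-chain amino acids and phenylalanine), the most abundant gene of this list, had 1109 ± 81.1 CPM in WT and 492 ± 247 CPM in KO mice, and *Slc16a10* (TAT1, a carrier of aromatic amino acids) had 348 ± 14.4 and 91.7 ± 60.2 CPM (SD, n = 5 each). Their log2 fold changes were -1.17 and -1.93 (adjusted p = 0.00998 and 0.00321 by edgeR), and no KO library overlapped a WT library. *Slc7a15*, a light chain gene of the same family as *Slc7a9*, had a log2 fold change of -1.79 (adjusted p = 0.0101 by edgeR) and *Slc38a11* one of -1.65 (adjusted p = 0.0134 by edgeR), the latter at 1.38 CPM in WT mice. For *Slc7a15* KO1 lay within the WT range at 136 CPM, and leaving it out gave -2.42 on the log2 scale. Of the higher genes, *Slc6a18* (a relative of *Slc6a19* best known from the kidney), *Slc38a3* and *Slc43a1* had log2 fold changes of 2.28, 1.58 and 1.03 (adjusted p = 0.0106, 0.0236 and 0.0114 by edgeR) and stayed at low levels, with 3.28, 4.16 and 5.05 CPM in KO mice. For *Slc6a18* KO1 was below every WT library, at 0.394 CPM, and the other KO libraries were above them. The call of *Slc38a3* was lost without WT1 or WT2 (adjusted p = 0.0586 and 0.0619 by edgeR), and that of *Slc43a1* when scaled to the epithelial genes (0.60, adjusted p = 0.0747 by edgeR). The taurine carrier *Slc6a6*, at 275.5 ± 23.9 CPM in WT and 232.5 ± 37.8 CPM in KO mice, was not past the threshold (adjusted p = 0.162 by edgeR).

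Among peptidases that supply or use the substrates of these carriers, genes were called in both directions. Of 15 genes, all tested, 4 were called lower and 3 higher, against 13.9% and 16.0% of all genes tested, with a median log2 fold change of -0.17. *Anpep* (aminopeptidase N), the most abundant of them at 6854 ± 333 CPM in WT and 6346 ± 1894 CPM in KO mice (SD, n = 5 each), was not past the threshold (adjusted p = 0.711 by edgeR). *Mme* (neprilysin) and *Ace* (the angiotensin converting enzyme) had log2 fold changes of -3.16 and -2.85 (adjusted p = 3.17e-04 and 0.00151 by edgeR). *Mep1a* (a meprin subunit) and *Naaladl1* (an ileal dipeptidase) had log2 fold changes of 2.59 and 1.94 (adjusted p = 1.93e-04 and 0.00547 by edgeR). *Naaladl1* had 522 to 1854 CPM in WT and 2979 to 5270 CPM in KO libraries. In each of these 4 called genes the groups did not overlap.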

How the data were processed

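The deposited values are read counts for each Ensembl gene, whole numbers without normalization, from 1 library per mouse sequenced on a NovaSeq instrument. The submitters' processing notes name FastQC 0.11.9, Trimmomatic, HISAT2 2.0.4, SAMtools 1.3.1, DESeq2 1.14.1 and the build GRCm38, and the labels a SMARTER mRNA-Seq kit. For the read counter, annotation and strand, the entry is: not given in the sources used here. Symbols, positions and exon lengths came from GENCODE M21 (GRCm38), which named 34490 of 35275 IDs, and *Tmem27* was matched as *Cltrn*.

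Groups were taken from the titles. In R 4.3.3, edgeR 4.0.16 was run after filterByExpr (count of 10, total of 15 at least) with TMM scaling, a quasi-likelihood test, and Benjamini-Hochberg adjustment over all 15610 genes with a threshold of 0.05. Standard errors are the log2 fold change over the root of the F statistic. Ratios used counts with 0.5 added and 2-sided exact permutation tests. Only 9 of the 10 genes passed the filter, so *Slc6a14* was tested on log2 CPM by the exact test. Alternatives were RLE or library size scaling, DESeq2 1.42.0, dropping the filter, keeping genes with a mean count of 10 or more, leaving out each mouse, the replicate number as a block, and a smooth muscle or an epithelium score as covariate. Scaling to the epithelial genes and leaving out KO1 and KO2 together were chosen after seeing the data. All columns of the deposited files were used. No libraries were near-duplicates (chi-square per degree of freedom 15.4 or more for every pair). By this measure KO1 was nearer to WT4 (67.2) and WT5 (83.5) than to any other KO library (98.7 or more). The nearest pairs were WT4 with WT5 (15.4) and WT2 with WT3 (17.0).

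The members, lists and motifs were chosen with earlier results of these data known. Named genes are the 10 members, *Slc39a14*, the 3 most abundant genes of each list, and its called genes with the highest and lowest log2 fold change (up to 3 each for other transporters, 2 elsewhere). *Prepl*, *Oxa1l* and *4430402I18Rik* were added because they overlap members. Some genes that this rule names, and 1 of 4 ratios computed, are not reported here.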

Additional observations from a re-analysis of the deposited data

Results flagged for a closer look

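In a group of 5 libraries, a value was singled out when its gap to the nearest library was over 0.71 of the range of the group, which chance gives in about 1 of 20 groups. Of 28 groups tested, over the 10 transporters, *Slc39a14* and 3 ratios in each genotype, 5 had such a value, all in KO mice. KO1 stood high for *Slc39a14* (160.1 CPM, the next 93.8 CPM), *Slc15a1* (895 CPM, the next 446 CPM) and *Slc7a8* (201 CPM, the next 50.6 CPM). KO2 stood high for *Slc6a14* (182 CPM, the next 47.2 CPM). KO5 stood high for the ratio of *Slc3a2* to *Slc7a8* (16.1, the next 5.29).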

How the results depend on the processing

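With each mouse left out in turn, 1 to 2 transporters were called higher, 4 to 5 lower, 10 to 17 other transporters, 4 to 6 partners, 6 to 8 peptidases, 4 to 6 amino acid response genes and 3207 to 5507 genes in all. *Slc39a14* stayed between -1.57 and -1.21, and the ratios between -0.57 and -0.30 (*Slc3a1* to *Slc7a9*), -0.91 and -0.66 (*Slc3a2* to *Slc7a7*) and 1.94 and 2.88 (*Slc3a2* to *Slc7a8*). With DESeq2, without a filter, with a filter at a mean count of 10, or without KO1 and KO2 (chosen after seeing the data), 2 transporters were called higher, as with some mice left out. The added gene was *Slc6a14*, which passes a filter on low counts only through its KO counts. With library size only there were also 2, and the added gene was *Slc7a9*. Library size only also moved the median of all genes from 0.03 to 0.15, the share of calls that were higher from 53.5% to 69.4%, and the amino acid response calls to 11. The smooth muscle score as covariate left 0 transporters higher and 1 lower (*Slc36a1*, -2.02, adjusted p = 0.0405 by edgeR), 0 calls in the other 4 lists and 9 genes in all, with 2071 at an unadjusted p under 0.05. The epithelium score left 0 calls in each of these (1338 genes at an unadjusted p under 0.05 by edgeR, and 5602 called by DESeq2 without the score). Neither score overlaps between the groups, which leaves little to estimate the genotype from. *Slc39a14* was then -0.56 and -0.77 (adjusted p = 0.501 and 0.688 by edgeR). Signs turned under the epithelium score for *Slc7a9* (-0.51), *Slc38a3* (-0.45), *Naaladl1* (-0.19), *Wars* (-0.56), *Atf4* (-0.05) and *Epcam* (-0.30), and under the smooth muscle score for *Slc3a1* (0.61), *Slc6a19* (0.08), *Slc6a6* (0.09), *Anpep* (0.43), *Nars* (0.19), *Atf4* (-0.18), *Myh11* (-0.24), *Acta2* (-0.18) and *Csf1r* (0.23). Scaling to the epithelial genes (chosen after seeing the data) gave 8 transporters lower, 14 peptidases and 7900 genes called, 8.87% of them higher, with a median of -0.43, and turned *Slc7a9* to -0.26 and *Atf4* to -0.28. The cause of these changes was not tested.

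Mice share only a replicate number: the correlation of same-numbered deviations was -0.17 to 0.18, and 1 of 5 KO libraries was closest to the WT library of its number. With the replicate block, 1 transporter was higher and 4 lower, and 3848 genes were called. The paired differences of the 3 ratios were -0.48, -0.81 and 2.43, each with an exact p of 0.0625, the smallest that 5 pairs allow, so this says nothing about their stability.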

Other observations

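Genes of the amino acid response, which cells switch on through the transcription factor ATF4 when amino acids run short, were measured beside the carriers. Of 18 listed genes, all tested, 4 were called higher and 1 lower, against 16.0% and 13.9% of all genes tested, with a median log2 fold change of 0.22. *Eif4ebp1*, an inhibitor of cap-dependent translation, had 15.9 ± 1.23 CPM in WT mice (SD, n = 5) and 17.5, 37.6, 41.0, 38.7 and 24.1 CPM in KO1 to KO5. It was called higher (adjusted p = 0.00655 by edgeR), and its groups did not overlap, with KO1 close to the WT libraries. *Atf5*, a relative of *Atf4*, rose by 0.82 on the log2 scale (adjusted p = 0.00743 by edgeR), with KO1 within the WT range. *Wars*, the tryptophanyl-tRNA synthetase, rose by 0.67 (adjusted p = 0.0260 by edgeR), and KO5 was the highest library at 221 CPM. The calls of *Eif4ebp1*, *Atf5* and *Wars* were lost when scaled to the epithelial genes (adjusted p = 0.0705, 0.173 and 0.303 by edgeR), and that of *Wars* also without WT1, WT2 or WT3 (0.0530, 0.0621 and 0.0635). *Trib3*, a pseudokinase induced by ATF4, fell from 22.3 ± 3.70 CPM to 7.96 ± 3.01 CPM (SD, n = 5 each). That is a change of -1.49 on the log2 scale (adjusted p = 0.00139 by edgeR), and its groups did not overlap. *Atf4* itself (143 ± 4.73 and 162 ± 30.7 CPM) and *Nars*, the asparaginyl-tRNA synthetase (223 ± 8.83 and 201 ± 44.7 CPM), were not past the threshold (adjusted p = 0.305 and 0.446 by edgeR).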
